A study of Mus musculus with 48 samples.

Results

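The proteasome is the barrel-shaped protease complex that degrades ubiquitin-tagged proteins, and its proteolytic work is done by the constitutive catalytic subunits β5 (Psmb5), β1 (Psmb6) and β2 (Psmb7). Interferon signalling, and the basal state of many immune cells, brings in the immunosubunits β5i (Psmb8), β1i (Psmb9) and β2i (Psmb10), which are built into new particles in place of β5, β1 and β2 respectively and alter the peptides made available to MHC class I. PA28, a ring of Psme1 (PA28α) and Psme2 (PA28β) chains that caps the barrel, is another interferon-responsive component, and microglia, the resident macrophages of brain and spinal cord, are a main site of antigen processing in nervous tissue. The genes described here are these 8, taken by gene symbol: the 3 immunosubunits, the 2 PA28 subunits and the 3 constitutive catalytic subunits, out of 35870 genes in the count table. All 8 passed the filter on low counts in both tissues.

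RNA-seq libraries were made from polyadenylated RNA of wild-type C57BL/6 male mice, from microglia sorted as Cd11b+ Cd45+ cells out of dissociated brain and from whole spinal cord that had been flash frozen. There were 8 libraries in each of 3 groups per tissue. The young mice were 3 months old and received vehicle, old mice were 23 months old and received vehicle, and old mice with repopulation (called repopulated below) were 23 months old, received an inhibitor of the receptor Csf1r for 5 days, which depletes microglia, and then recovered for 7 days. The labels do not say that every library is a separate animal, nor that the 2 tissues come from the same mice. The p-values below therefore reflect variation among libraries, which may be technical. Library totals ran from 18741936 to 34496308 counts in microglia and from 15909868 to 33004806 in cord. Sorted microglia carried their defining markers (Tmem119, P2ry12, Csf1r, Cx3cr1 and Sall1), with a median summed CPM (read counts scaled to a common library size by TMM) of 42900 in young, 29600 in old and 30500 in repopulated libraries. The gate does not separate other myeloid cells: the summed level of 6 neutrophil markers had a median of 453 CPM (range 190–899) in young, 4240 (range 1850–8140) in old and 1230 (range 703–3310) in repopulated microglia, and that of 4 monocyte markers was 65.3, 354 and 136 CPM. The summed level of 4 border macrophage markers had medians of 169, 309 and 57 CPM in the same groups. None of these markers was at 0 in all libraries of a group. Repopulated cord replicate 6 stood apart, with the highest CPM of its group for all 8 genes and 3.1% of its counts on 82 ribosomal protein genes against a group median of 1.114%, so the main cord results are also given without it. Repopulated microglia replicate 1 likewise had the highest CPM of its group for all 8 genes.

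Short motifs bound by interferon-activated factors or by stress-responsive activators of proteasome genes were sought on both strands in promoter windows (RefSeq, GRCm38.p6; 250 bases before to 50 after the annotated start), because the 2 subunit families are known to be controlled differently. Windows were found for 7 of the 8 genes (8 windows, Psme2 having more than 1); Psmb7 had none in the table. The motifs were the core of the interferon-stimulated response element (GAAA, any 2 bases, GAAA), the gamma-activated site (TTCNNNGAA) and the core of the antioxidant response element (TGACNNNGC). The 4 matches are shown 5′ to 3′ on the gene's strand, with the motif in capitals and 10 flanking bases on each side:
Psmb8 gamma-activated site, chr17:34198088-34198116, plus strand: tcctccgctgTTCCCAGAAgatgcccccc
Psme1 interferon-stimulated response element core on the opposite strand, chr14:55578493-55578522, plus strand: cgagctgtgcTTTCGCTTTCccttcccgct
Psmb5 antioxidant response element core, chr14:54618024-54618052, minus strand: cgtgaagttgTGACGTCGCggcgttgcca
Psmb6 antioxidant response element core, chr11:70525338-70525366, plus strand: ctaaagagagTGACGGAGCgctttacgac
The first motif base lay at -97 from the RefSeq start in Psmb8, at +10 in Psme1, at -47 in Psmb5 and at -9 in Psmb6. The windows of Psmb8, Psmb9 and Psme1 lay wholly within the GENCODE gene spans given in the next paragraph. Bases upstream of those 3 spans were therefore not searched. Of 32851 promoter windows of the same length, 3.44% held the interferon-stimulated response element core, 8.3% the gamma-activated site and 12.4% the antioxidant response element core. A match is a description of letters, not a site shown to be bound, and windows of Psmb9, Psmb10 and Psme2 held none of the 3 strings.

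Psmb8, Psmb9 and Tap1, the latter a chain of the pump that carries peptides into the endoplasmic reticulum, are neighbours on chromosome 17 within the MHC: Psmb8 lies at chr17:34197721-34201454 on the plus strand and Psmb9 at chr17:34181987-34187764 on the minus strand (GRCm38, GENCODE annotation). Psmb9 shares 212 exonic bases with Tap1 on the other strand, and Psmb8 shares 498 with the antisense gene Gm20496. The library kit does not mark strand, so reads in those stretches cannot be told apart. Psme1 (chr14:55578123-55581529, plus) and Psme2 (chr14:55587441-55591113, minus) are also neighbours, and Psmb5 (chr14:54614119-54618022, minus) lies on the same chromosome. Psmb10 is at chr8:105935735-105938444 (minus), Psmb6 at chr11:70525367-70527858 (plus) and Psmb7 at chr2:38588036-38644087 (minus). Psmb7 shares exonic bases with the kinase gene Nek6 on the other strand, whose median count was 5079 in young, 3331.5 in old and 2510.5 in repopulated microglia. Psme2 has a near-identical copy, Psme2b, with medians of 213.5, 150 and 160 counts in the same groups. This adds uncertainty to the Psme2 values, as the shared exons do to those of Psmb5, Psmb7, Psmb8, Psmb9 and Psme1.

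The immunosubunits made up most of the catalytic subunit transcripts in sorted microglia and a small minority in cord. In TPM (transcript levels per gene length, on the same total in every library), Psmb8, Psmb9 and Psmb10 together held 56.23% ± 1.6 (SD, n = 8) of the summed level of the 6 catalytic genes in young microglia, 57.6% ± 2.78 in old and 63.21% ± 1.63 in repopulated microglia. The 8 old microglia libraries ran from 54.29% to 62.15% and overlapped the young ones, which ran from 53.9% to 58.9%. Repopulated microglia ran from 61.29% to 65.69%, above every young library and overlapping the old. In cord the share was 9.148% ± 0.954 in young, 12.43% ± 0.759 in old and 15.16% ± 1.59 in repopulated libraries (14.91% ± 1.53, n = 7, without replicate 6). Every old cord library (11.57% to 13.54%) was above every young one (8.274% to 11.32%), and repopulated cord (12.09% to 16.95%) overlapped old cord. No test is given for this summed share. In bulk cord, fewer cells of a type and less RNA per cell cannot be told apart, and the summed level of the 5 microglia markers in cord had medians in the same order, at 181, 238 and 274 CPM; its part in the cord results was not tested.

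**Figure D1:**
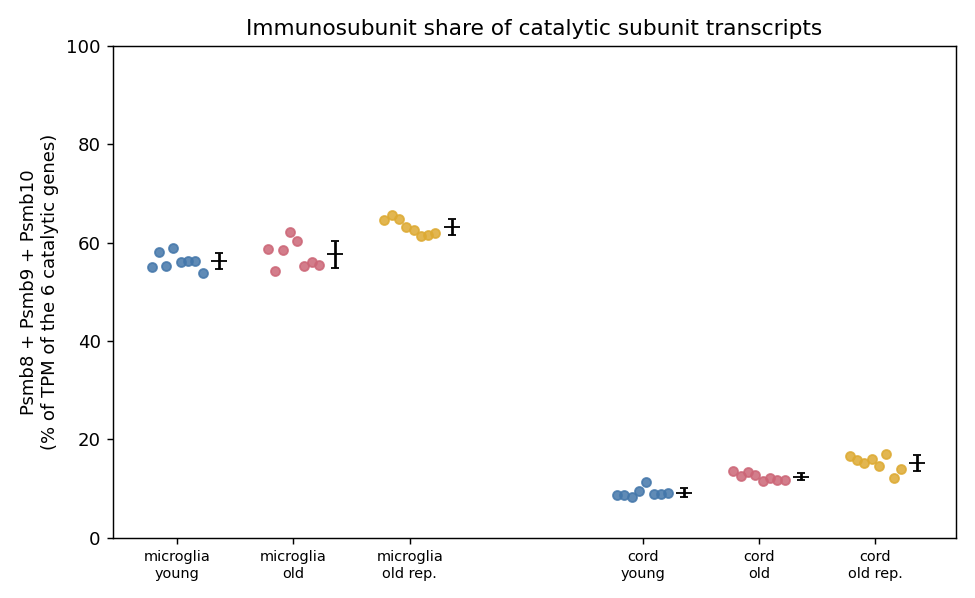
Share of the summed TPM of the 6 catalytic subunit genes held by Psmb8, Psmb9 and Psmb10 (y axis, percent) in each library (points, 8 per group) of the 6 groups (x axis), with the group mean and SD in black. Microglia means lie between 56.23% and 63.21%, and cord means between 9.148% and 15.16%.

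The order of the single genes differed between the tissues. In young microglia the mean level was highest for Psme1 (249.5 TPM ± 26.5, SD, n = 8) and Psmb8 (241.6 ± 9.08), whose libraries overlapped. Psmb6 (169.5 ± 9.19), Psmb10 (146.3 ± 11.3) and Psmb7 (140.8 ± 6.87) came next, each overlapping its neighbour, above Psme2 (112.8 ± 6.78) and Psmb9 (89.35 ± 8.84). Psmb5 was lowest at 61.13 TPM ± 4.89, below every library's value for Psmb9. In young cord the constitutive subunits led, with Psmb7 at 305 TPM ± 21.7, Psmb6 at 260.6 ± 28.8, overlapping Psmb7, and Psmb5 at 94.92 ± 10.2. Psme1 at 76.69 TPM ± 7.38 overlapped Psmb5, and Psme2 (54.16 ± 6.67) overlapped Psmb10 (43.27 ± 3.21). Psmb8 at 15.77 TPM ± 3.62 and Psmb9 at 7.32 ± 1.52 were the lowest in cord, and the ranges of these last 2 genes met only at their edges. The first and last places kept their genes in all 3 groups of each tissue: Psme1 first and Psmb5 last in microglia, Psmb7 first and Psmb9 last in cord.

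**Figure D2:**
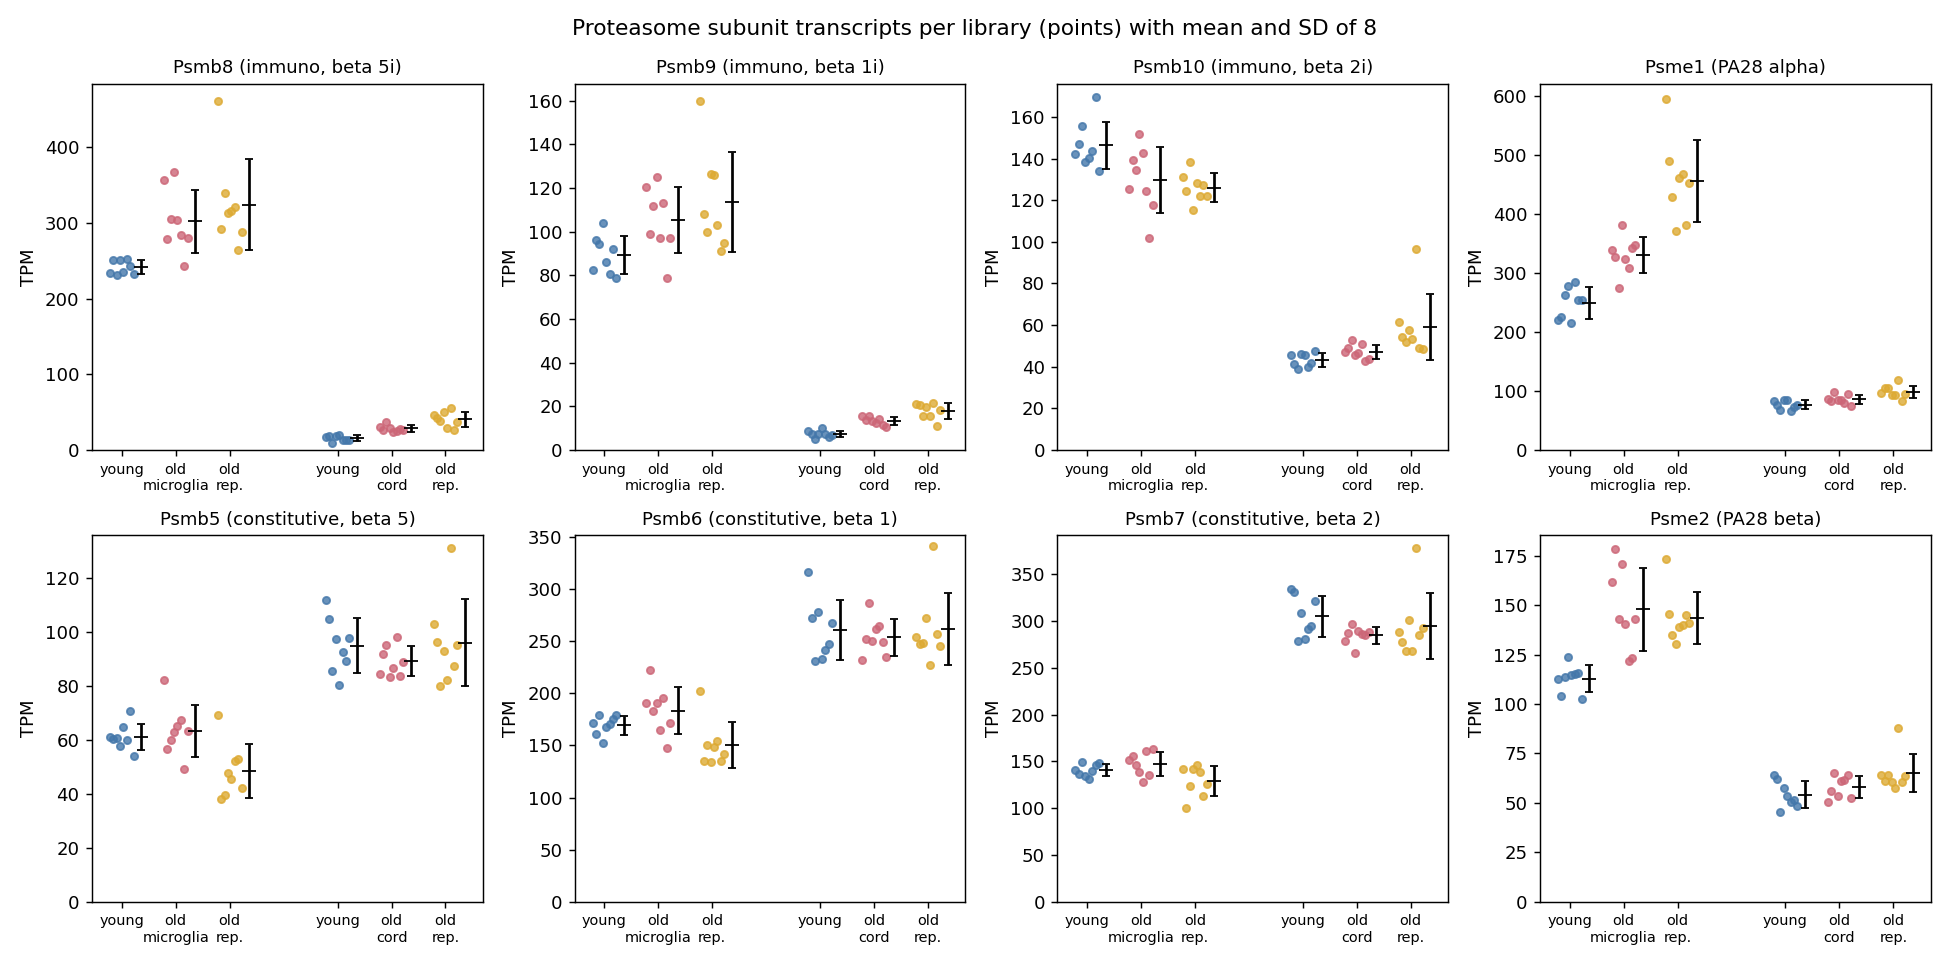
Level of each of the 8 genes (y axis, TPM) in every library (points) of the 6 groups (x axis), with the mean and SD of 8 libraries in black. On average immunosubunit and PA28 genes are higher in microglia than in cord and Psmb5, Psmb6 and Psmb7 higher in cord, and 1 repopulated library of each tissue lies above its group for several genes.

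The first comparison asked how age changes the subunits in microglia. Psmb8 and both PA28 genes were higher in old than in young microglia, by 1.33-fold for Psmb8, 1.4-fold for Psme1 and 1.39-fold for Psme2, while none of the constitutive genes passed the test. Over all 14382 genes tested, 21.7% were called, 11% higher and 10.7% lower (edgeR quasi-likelihood test, Benjamini-Hochberg adjusted p under 0.05), against 3 of 8 higher and none lower among these genes. Psmb8, the chymotrypsin-like immunosubunit, lay at 104.5, 122 and 133.9 CPM (lowest, median and highest of 8, scaled by TMM) in young and at 108.5, 150.8 and 213.1 in old libraries. Old libraries were mostly above the young ones, with 1 at the lower end of the young range. The log2 fold change was 0.41 (SE 0.1143, adjusted p = 0.00883). Psmb9, the caspase-like site's immunosubunit, ran from 34.21 (median 37.8) to 43.95 CPM in young and from 30.56 (median 46.89) to 62.97 in old microglia, and 6 of 8 old libraries were above every young one. Its log2 fold change of 0.32 (SE 0.1268) gave an adjusted p of 0.0701. That miss depended on the libraries and scaling: without old replicates 2 and 7, which an earlier look at these data had found to stand apart, the value was 0.42 (adjusted p = 0.0136), and without old replicate 7 or repopulated replicate 1 alone it also passed. Psmb10, the trypsin-like site's immunosubunit, had medians of 89.41 CPM in young and 86.46 in old microglia and a log2 fold change of -0.10 (SE 0.0932, adjusted p = 0.558). It was called lower with limma on log2(TPM + 1) (-0.18, adjusted p = 0.0485), where the all-gene median was -0.08. With limma on log2(TPM + 0.1) none of the 8 genes was called lower.

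PA28 moved with age in microglia to a similar extent in both chains. Psme1 lay at 84.13, 99.5 and 111.9 CPM in young and at 106.5, 138.4 and 177.2 in old libraries, and all but 1 of the old libraries were above every young one. Its log2 fold change was 0.49 (SE 0.1029, adjusted p = 0.000637). Psme2 lay at 59.29, 63.94 and 73.7 CPM in young and at 63.74, 86.27 and 114.8 in old libraries, with 6 of 8 old libraries above every young one and a log2 fold change of 0.47 (SE 0.1025, adjusted p = 0.000788). The constitutive subunits gave log2 fold changes of 0.13 for Psmb5, 0.19 for Psmb6 and 0.14 for Psmb7, with adjusted p of 0.595, 0.226 and 0.312, and the young and old ranges of all 3 overlapped. No gene of the 8 had all old libraries above all young ones, as 4.12% of all genes had.

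The second comparison set repopulated against old microglia. Psme1 rose again, by 1.64-fold, and Psmb8 by 1.27-fold, while Psmb9, Psmb10 and Psme2 gave positive values that did not pass in the main test. Over all genes 16.2% were called, 9.05% higher and 7.2% lower, against 2 of 8 higher and none lower among these genes. Psme1 reached 177, 225.6 and 323.8 CPM in repopulated libraries, and only the lowest of them met the highest old library. Its log2 fold change was 0.71 (SE 0.103, adjusted p = 6.7e-06). Psmb8 reached 164.1, 190.3 and 314.4 CPM, with a log2 fold change of 0.35 (SE 0.1141, adjusted p = 0.034). This Psmb8 call rested on the scaling and on single libraries: with total-count scaling the value was 0.18 (adjusted p = 0.213), with an offset for gene length 0.21 (0.059), without old replicates 2 and 7 0.27 (0.122), and it was lost without any 1 of old replicates 3, 6, 7 or 8 or repopulated replicates 1 or 5. Psmb9 gave 0.36 (SE 0.1266, adjusted p = 0.0502), with repopulated libraries at 49.13, 55.45 and 94.47 CPM. It passed with no count filter (0.37, adjusted p = 0.0366), with the DESeq2 Wald test (0.35, 0.0444) and in 13 of the 24 cases in which 1 library was left out. Psmb10 gave 0.20 (adjusted p = 0.151), and 0.27 (0.0378) without old replicate 4, and Psme2 gave 0.20 (0.199). None of the 8 genes had all repopulated above all old libraries, as 2.09% of all genes had.

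Psmb5, Psmb6 and Psmb7 gave log2 fold changes of -0.14, -0.04 and 0.06 between repopulated and old microglia in the main test, with adjusted p of 0.554, 0.86 and 0.733. Their direction against all genes depended on the scale. With the length offset Psmb5 (-0.41, adjusted p = 0.00593) and Psmb6 (-0.23, adjusted p = 0.0117) were called lower, and limma on log2(TPM + 1) called all 3 lower, on a scale where the median over all genes was itself -0.21 against -0.04 in the main test. On that TPM scale Psme1 still rose by 0.45 (limma, adjusted p = 0.000176), while Psmb8 gave 0.09 (limma, adjusted p = 0.419).

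Across the whole span from young to repopulated microglia, 4 of the 8 genes were called higher, against 32.7% of all genes called, 16.1% higher and 16.5% lower: Psme1 by 2.3-fold (log2 1.20, SE 0.104, adjusted p = 7.25e-11), Psmb8 by 1.69-fold (adjusted p = 3.79e-06), Psmb9 by 1.6-fold (7.73e-05) and Psme2 by 1.6-fold (3.92e-06). For each of these 4 every repopulated library was above every young one, as was the case for 7.2% of all genes, while 5.86% had every repopulated library below. Psmb10 gave 0.10 (adjusted p = 0.443), and Psmb5 (-0.01), Psmb6 (0.15) and Psmb7 (0.20) did not pass, with adjusted p of 0.972, 0.301 and 0.0933. With the length offset Psmb5 was called lower (-0.44, adjusted p = 0.00115). Psmb10 turned to -0.21 and was called lower with limma on log2(TPM + 1) (adjusted p = 0.0092), and Psmb7 was called higher with DESeq2 size factors (0.24, adjusted p = 0.0466).

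In whole cord the age comparison picked out Psmb8 and Psmb9. Psmb8 was 1.78-fold and Psmb9 1.79-fold higher in old than in young cord, against 6.15% of 18271 genes called, 4.88% higher and 1.26% lower, and no other gene of the 8 passed. Psmb8 lay at 4.265, 6.864 and 8.768 CPM in young and at 10.47, 11.69 and 15.56 in old cord, and Psmb9 at 1.952, 2.667 and 3.707 and at 3.872, 4.867 and 5.684 CPM. The young and old libraries did not overlap for either gene, as was so in this direction for 2.45% of all genes. The log2 fold changes were 0.83 (SE 0.2133, adjusted p = 0.0157) for Psmb8 and 0.84 (SE 0.1916, adjusted p = 0.00567) for Psmb9. Psmb10 (0.10, adjusted p = 0.909), Psme1 (0.14, 0.769) and Psme2 (0.07, 0.921) did not pass, and Psmb5, Psmb6 and Psmb7 gave -0.12, -0.06 and -0.13. Leaving out repopulated cord replicate 6, which belongs to neither group but is part of the fit, lowered the adjusted p to 0.000203 for Psmb8 and 8.13e-05 for Psmb9 and changed no call.

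Repopulated against old cord gave no call for any of the 8 genes, in a comparison where 0.148% of all genes were called higher and 0% lower, and where 0.0493% had every repopulated library above every old one. DESeq2 and limma also called none of the 8, and 5 of the 8 had an unadjusted p under 0.05 in edgeR. The largest values were 0.72 for Psmb8 (SE 0.2091, adjusted p = 0.338), 0.61 for Psmb9 (0.407) and 0.58 for Psmb10 (0.681), and without replicate 6 they were 0.44 (adjusted p = 0.495), 0.38 (0.636) and 0.19 (0.427). The constitutive genes went from 0.32, 0.25 and 0.26 for Psmb5, Psmb6 and Psmb7 to 0.04, -0.01 and 0.00 without that library, and Psme1 and Psme2 from 0.39 and 0.37 to 0.17 and 0.09. Psmb8 in repopulated cord lay at 11.31, 17.34 and 45.12 CPM, and its highest value apart from replicate 6 was 21.53. For Psmb7 replicate 6 was at 267.4 CPM and the next library at 112.6.

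Between young and repopulated cord all 3 immunosubunits and Psme1 were called higher, against 10.1% of all genes called, 7.28% higher and 2.78% lower. The changes were 2.93-fold for Psmb8 (log2 1.55, SE 0.215, adjusted p = 9.95e-06), 2.73-fold for Psmb9 (1.45, SE 0.1919, adjusted p = 5.14e-06), 1.6-fold for Psmb10 (0.68, adjusted p = 0.037) and 1.45-fold for Psme1 (0.53, adjusted p = 0.0192). Without replicate 6 these were 1.27, 1.23, 0.30 and 0.31 on the log2 scale, with adjusted p of 6.46e-07, 4.52e-07, 0.001 and 0.00123. The young and repopulated libraries did not overlap for Psmb8 and Psmb9, as for 2.96% of all genes. The Psmb10 call was lost without young replicate 1, 2, 3, 4, 6 or 7, with adjusted p up to 0.0665. Both the Psmb10 and the Psme1 call were lost when a replicate block was fitted, with values given in the last paragraph. Psme2 gave 0.45 (adjusted p = 0.0969), and Psmb5, Psmb6 and Psmb7 gave 0.20, 0.19 and 0.13, turning to -0.08, -0.07 and -0.12 without replicate 6, with no call either way.

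Whether the age change differed between the tissues was tested by an interaction over all 48 libraries, in which 20.5% of 19110 genes were called: 5.44% had a larger change in microglia and 15% a smaller one, around a median over all genes of -0.15 (-0.01 without repopulated cord replicate 6). Of the 8 genes 1 passed in the main test: the Psmb9 change was smaller in microglia than in cord by 0.67 (SE 0.2374, adjusted p = 0.0371). That call was lost with DESeq2 size factors (-0.52, adjusted p = 0.13), with total-count scaling (-0.52, 0.11), with no count filter (-0.55, 0.131), without old microglia replicates 2 and 7 (-0.56, 0.0907) and without repopulated cord replicate 6 (-0.53, 0.0505). Psmb8 gave -0.58 (adjusted p = 0.0937), and -0.57 (0.0119) with the length offset. Psme2 gave 0.24 (adjusted p = 0.483), and without repopulated cord replicate 6 its change was larger in microglia by 0.39 (0.0253). For repopulated against old none of the 8 passed in the main test, against 11% of all genes called, 3.49% with a larger and 7.54% with a smaller change in microglia. The values ran from -0.49 for Psmb5 to 0.30 for Psme1 (edgeR). Without repopulated cord replicate 6 the Psme1 change was larger in microglia by 0.58 (adjusted p = 0.00228), and it also passed with the length offset (0.34, 0.0159). Psmb5 passed with the length offset (-0.44, adjusted p = 0.00669) and total-count scaling (-0.59, 0.0369), and Psmb6 with the length offset (-0.23, 0.0409), in each case lower in microglia than in cord.

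Setting each immunosubunit against the constitutive subunit whose place it takes, within the same library, removes the scaling between libraries. These ratios of TPM were tested by a two-sided exact permutation test of 8 against 8 libraries, with adjustment over the 42 ratio tests made, and the smallest p this design allows is 0.000155. In cord all 3 pairs shifted towards the immunosubunit at each of the 3 comparisons. In microglia the pairs parted: 1 rose and 1 fell with age, and 2 rose from old to repopulated.

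The β5 pair moved in every comparison. Psmb8 stood at 3.973 ± 0.337 times the level of Psmb5 (SD, n = 8) in young, 4.804 ± 0.521 in old and 6.805 ± 1.05 in repopulated microglia. The lowest, median and highest ratios were 3.446, 4.002 and 4.35 in young, 4.23, 4.778 and 5.839 in old and 4.996, 6.747 and 8.586 in repopulated libraries, and 6 of the 8 old libraries were above every young one. The log2 difference was 0.27 (SE 0.0692, exact permutation adjusted p = 0.00218) with age and 0.49 (SE 0.0969, adjusted p = 0.00115) from old to repopulated. In cord the ratio was 0.1671 ± 0.0424 in young, 0.3213 ± 0.0466 in old and 0.422 ± 0.0727 in repopulated libraries. The log2 differences were 0.97 (SE 0.1431, exact permutation adjusted p = 0.00087) with age, higher than every young library in 7 of 8, and 0.39 (SE 0.118, adjusted p = 0.0122) from old to repopulated, and 0.39 (adjusted p = 0.0199) without replicate 6.

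The β1 pair passed in microglia from old to repopulated but not with age. Psmb9 stood at 0.5303 ± 0.0775 times Psmb6 in young, 0.5766 ± 0.065 in old and 0.7574 ± 0.105 in repopulated microglia. The young and old ranges overlapped (log2 difference 0.12, SE 0.0938, exact permutation adjusted p = 0.277), whereas every repopulated library (0.6621 to 0.9416) was above every old one (0.4448 to 0.6553), with a log2 difference of 0.39 (SE 0.0922, adjusted p = 0.000544). In cord Psmb9 was at 0.02823 ± 0.00632 of Psmb6 in young, 0.05259 ± 0.00696 in old and 0.06863 ± 0.0131 in repopulated libraries. All 8 old cord libraries were above all young ones (log2 difference 0.91, SE 0.1195, exact permutation adjusted p = 0.000544), and the further difference to repopulated cord was 0.37 (SE 0.1273, adjusted p = 0.0261), or 0.38 (0.0329) without replicate 6.

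The β2 pair behaved otherwise in microglia. Psmb10 was at 1.04 ± 0.072 times Psmb7 in young, 0.8876 ± 0.151 in old and 0.9927 ± 0.148 in repopulated microglia. The log2 difference with age was -0.24 (SE 0.0917, exact permutation adjusted p = 0.0358), with 5 of 8 old libraries below every young one. This fall rested on single libraries: it missed the threshold in 10 of the 16 cases in which 1 library was left out, with values from -0.29 to -0.20, and without old replicates 2 and 7 (-0.21, adjusted p = 0.0963). From old to repopulated microglia it was 0.17 (SE 0.1128, adjusted p = 0.246). In cord the ratio rose from 0.1422 ± 0.011 to 0.1662 ± 0.0107 and 0.1986 ± 0.0277. The log2 differences were 0.23 (SE 0.0516, exact permutation adjusted p = 0.00218) and 0.25 (SE 0.0758, adjusted p = 0.00593), the latter 0.19 (0.0125) without replicate 6. Reads on the exons that Psmb7 shares with Nek6 cannot be separated here, and the part of Nek6 in these values was not tested.

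**Figure D3:**
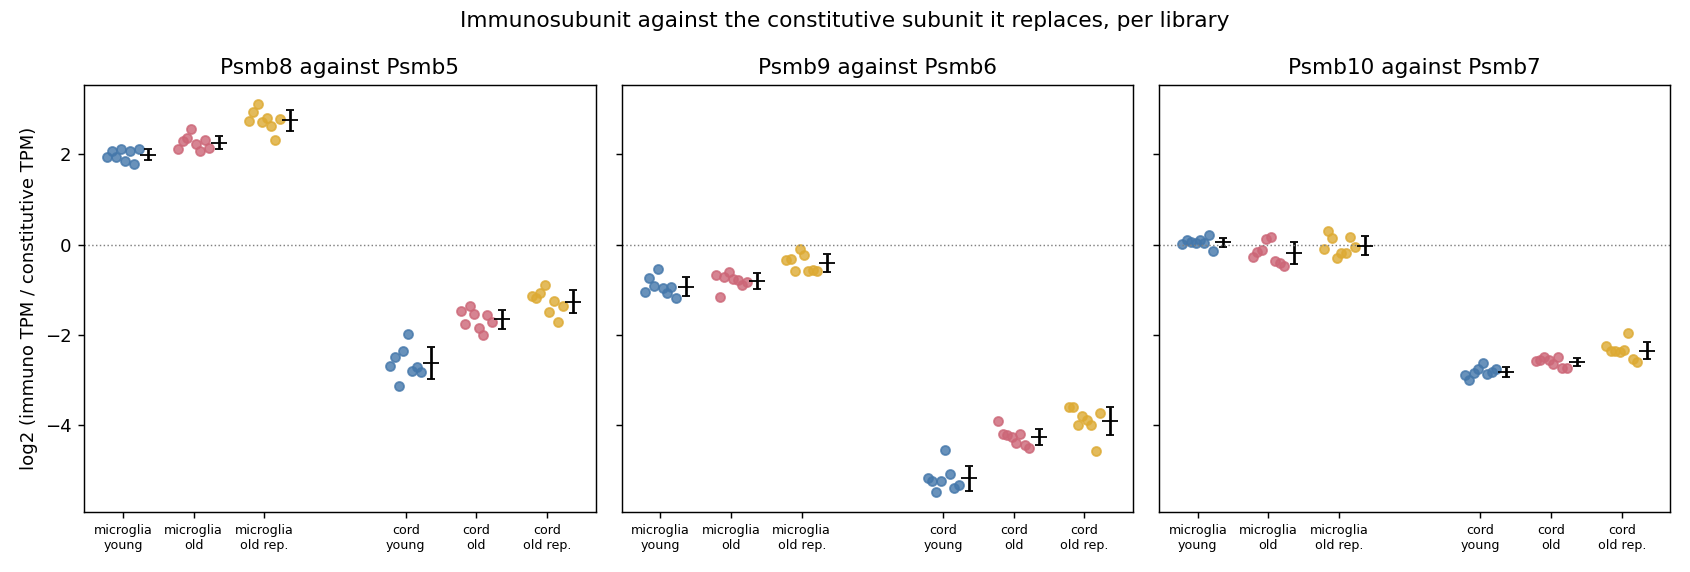
Log2 ratio of each immunosubunit's TPM to that of the constitutive subunit it replaces (y axis) in every library (points) of the 6 groups (x axis), with mean and SD of 8 in black and equality as a dotted line. Only Psmb8 against Psmb5 in microglia lies above equality in every library; cord libraries lie below it for all 3 pairs and move up from young to old to repopulated.

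From young to repopulated the ratio of Psmb8 to Psmb5 rose 1.7-fold in microglia and 2.56-fold in cord, and that of Psmb9 to Psmb6 rose 1.43-fold and 2.43-fold, with exact permutation adjusted p between 0.000544 and 0.00172. The ratio of Psmb10 to Psmb7 rose 1.39-fold in cord (exact permutation adjusted p = 0.000544) and was 0.947 times the young value in microglia (adjusted p = 0.421). Without replicate 6 the cord log2 differences were 1.35, 1.29 and 0.42, and all 3 still passed. Whether these ratio changes differ between the tissues was not tested.

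Among the immunosubunits, Psmb8 and Psmb9 both gained on Psmb10 with age in both tissues. The ratio of Psmb8 to Psmb9 gave no difference that passed in any of the 6 comparisons (exact permutation adjusted p from 0.246 to 0.997). Psmb8 rose against Psmb10 with age by 0.49 on the log2 scale in microglia and 0.75 in cord, and every old library was above every young one in both tissues (exact permutation adjusted p = 0.000544 in each). Psmb9 rose against Psmb10 by 0.41 (adjusted p = 0.00145) and 0.75 (adjusted p = 0.000544; exact permutation tests). From old to repopulated neither ratio to Psmb10 differed beyond the spread, with values from 0.11 to 0.19. The PA28 chains parted only between old and repopulated microglia among the single steps: Psme1 was at 2.215 ± 0.216 times Psme2 in young, 2.268 ± 0.317 in old and 3.171 ± 0.283 in repopulated microglia, a log2 difference of 0.49 (SE 0.0862, exact permutation adjusted p = 0.00087) for the last step. In cord the PA28 ratio stayed between 1.425 and 1.534 on average, with no difference that passed.

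The remaining proteasome genes were read from fixed lists of subunits. Of 12 other genes of the 20S core (the α ring and the non-catalytic β subunits), none was called in old against young microglia (median log2 fold change 0.11, against -0.01 over all genes), 1 was called higher in repopulated against old and 3 in repopulated against young, where 9.05% and 16.1% of all genes were. The single gene was Psmb1, a structural β subunit, at 0.65 (adjusted p = 0.000224 in edgeR) and at 0.80 (3.73e-06) against young. Psma5 (0.36, adjusted p = 0.0368 in edgeR), an α-ring subunit, and Psmb4 (0.26, 0.0453), a structural β subunit, were the others against young, and Psmb4 changed sign on the TPM scale. Of 19 subunits of the 19S cap, which recognises and unfolds ubiquitin-tagged proteins, 1 was higher and 2 lower with age, none higher and 3 lower from old to repopulated, and 2 higher and 9 lower from young to repopulated (median -0.20). Of all genes 11% were higher and 10.7% lower with age, 9.05% and 7.2% in the second comparison, and 16.1% and 16.5% in the third, so the counts with age are near or below the all-gene share. The lower ones included the ubiquitin receptor gene Adrm1 (-0.38 with age, -0.59 from young to repopulated, edgeR adjusted p = 0.00186 and 3.12e-06), the cap gene Psmd3 (-0.45, adjusted p = 3.5e-06) and the ATPase genes Psmc1 (-0.30) and Psmc2 (-0.27), all from young to repopulated. Psmd12 (-0.33) and Psmd7 (-0.30) fell from old to repopulated. Shfm1, a small cap subunit, was higher with age (0.71, edgeR adjusted p = 0.000643). With total-count scaling 13 of the 19 were called lower from old to repopulated, so the number depends on the scale. Under that scaling 2779 of all 14382 genes were called lower, around an all-gene median of -0.21.

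Of 8 assembly factors, none was called with age in microglia, where 21.7% of all genes were called. From old to repopulated microglia 2 were called higher, where 9.05% of all genes were. Pomp, the maturation factor that the core needs to be completed, was at 0.58 (edgeR adjusted p = 6.65e-05). Every repopulated library was above every old one for Pomp, as for 2.09% of all genes. The chaperone gene Psmg4 was at 0.92 (edgeR adjusted p = 0.0129). In cord none of 11 other 20S genes and none of 19 cap genes was called by edgeR, DESeq2 or limma in any comparison. Of all genes edgeR called 6.15% with age, 0.148% from old to repopulated and 10.1% from young to repopulated. At those shares only a few calls would fall in lists of this size. At an unadjusted p under 0.05 edgeR gave none of the 11. Of the 19 it gave 2 with age, none from old to repopulated and 1 from young to repopulated. Of all 18271 genes it gave 2752, 1099 and 4723. Without replicate 6, 1 of the 11 was called lower with age and 1 of the 19 from young to repopulated. In that fit 681 of all 18401 genes were called lower with age. From young to repopulated 867 were called lower and 1694 higher. The assembly gene Psmd5 was called lower in repopulated against young cord (-0.19, edgeR adjusted p = 0.0285). Psmb11, the β5 variant of the thymus, had at most 11 counts in any library.

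**Figure D4:**
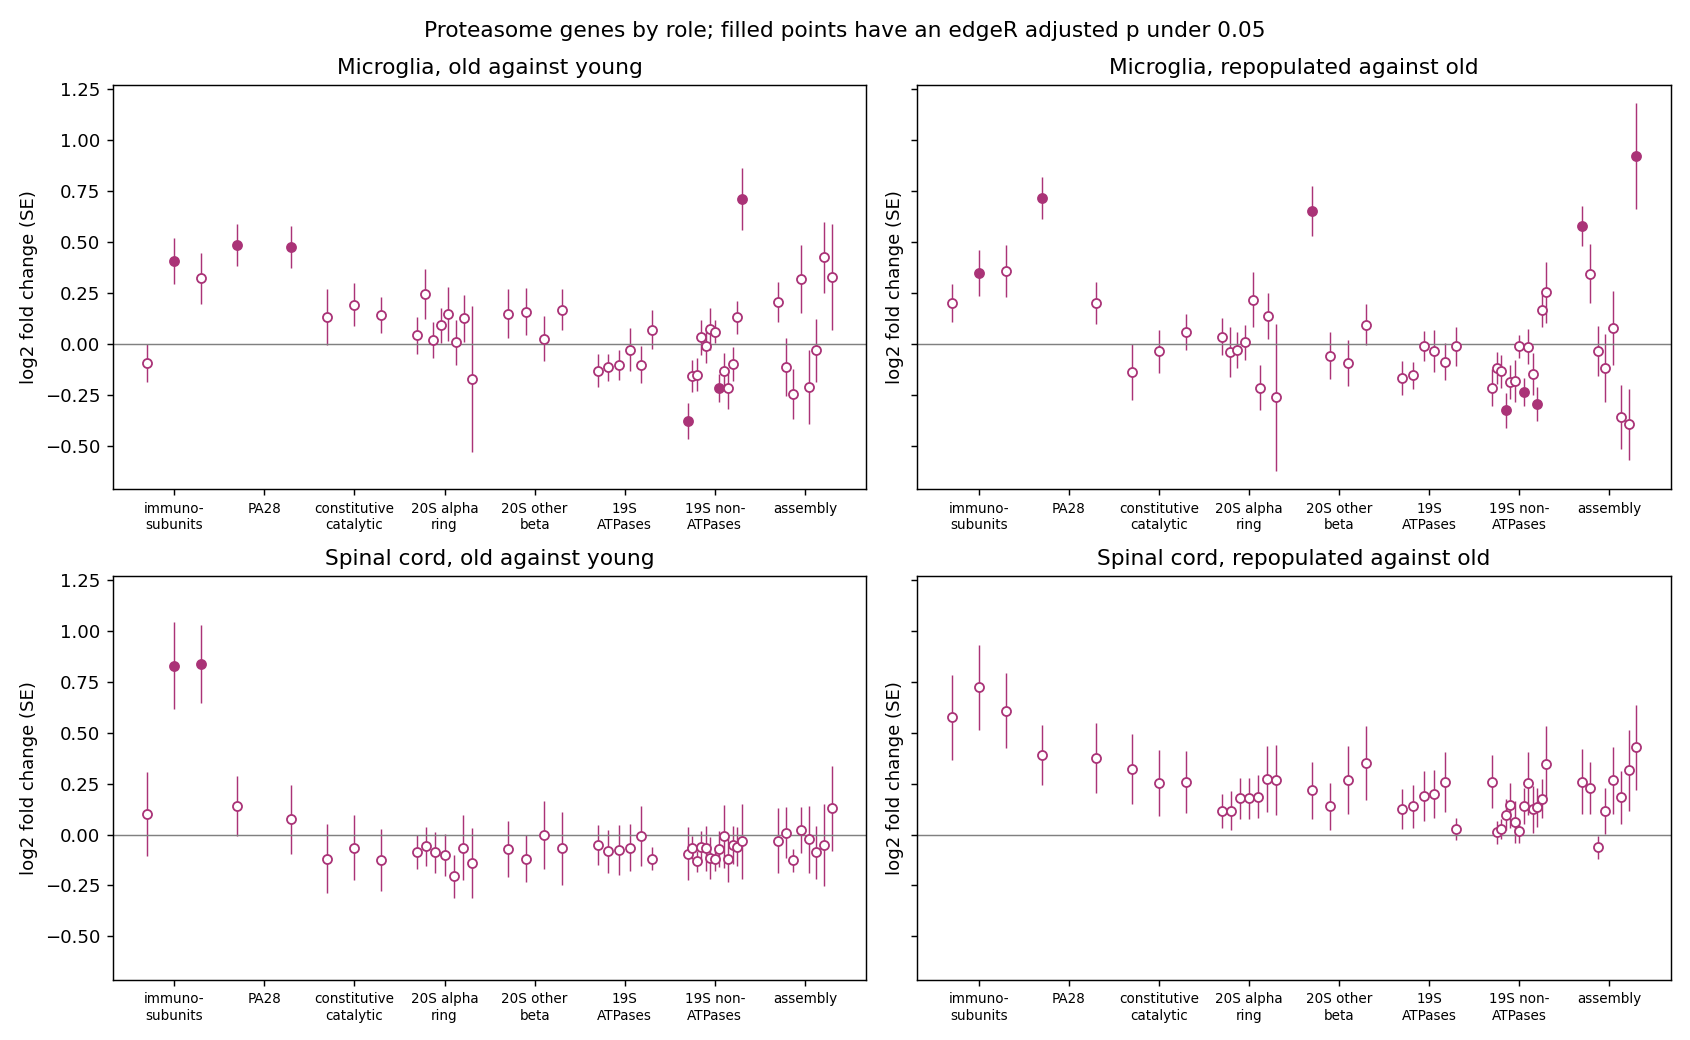
Log2 fold change with its standard error (y axis) of each proteasome gene, grouped by role (x axis), in microglia and cord, for the age step and for the step from old to repopulated. Filled points have an edgeR adjusted p under 0.05; with age they are Psmb8, Psme1, Psme2 and 3 cap genes in microglia and Psmb8 and Psmb9 in cord.

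Genes of the same antigen-processing route moved as follows. Of 8 genes of peptide transport and loading, 2 were called higher and 1 lower with age in microglia, 3 higher from old to repopulated, and 3 higher and 3 lower from young to repopulated, where 11%, 9.05% and 16.1% of all genes were higher and 10.7%, 7.2% and 16.5% lower. In cord edgeR called 3, none and 4 higher across the same comparisons, where 4.88%, 0.148% and 7.28% of all genes were. Without replicate 6 the last was 5 higher and 1 lower, where 1694 and 867 of all 18401 genes were. From old to repopulated cord the DESeq2 Wald test did call Tap1 (0.69, adjusted p = 0.00443) and B2m (0.60, 0.00868) higher. It called 62 of all 18271 genes higher there. Tap1 rose by 0.60 with age and by 0.86 from old to repopulated in microglia (edgeR adjusted p = 1.68e-05 and 9.05e-08) and by 0.64 with age in cord (0.00909). B2m, the light chain of MHC class I, rose by 0.78 and 0.84 in microglia and by 0.63 with age in cord (edgeR adjusted p = 2.92e-07, 2.23e-07 and 0.00396). Tap2, the other chain of the peptide pump, was 0.40 higher with age in cord (edgeR adjusted p = 0.00976), against 0.07 in microglia, and this tissue difference passed (-0.48, adjusted p = 0.00225). From young to repopulated microglia the direction of Tap2 depended on the scale: it gave 0.14 (adjusted p = 0.0705) in edgeR, 0.18 (0.023) with DESeq2 size factors and -0.18 (0.0231) with limma on log2(TPM + 1). Tapbp, which holds the pump to MHC class I, gave -0.01 and 0.13 in microglia and rose between young and repopulated cord (0.43, edgeR adjusted p = 0.00819). From young to repopulated microglia Tapbp gave 0.12, but 0.17 (adjusted p = 0.0324) with the length offset and -0.21 (0.0034) with limma on log2(TPM + 1).

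Among 8 tested regulators, Nlrc5, the transactivator of MHC class I genes and of Psmb9, showed the largest change with age in both tissues. Nlrc5 was 3.88-fold higher in old than in young microglia (log2 1.96, edgeR adjusted p = 4.46e-10), 1.75-fold higher again in repopulated microglia and 2.35-fold higher with age in cord (adjusted p = 2.25e-05). Irf1, a factor that drives Psmb9, gave 0.09 and -0.13 in microglia and was called in cord with age (0.35, edgeR adjusted p = 0.0352). That cord call was lost with limma on log2(TPM + 1) (0.36, adjusted p = 0.177), with no count filter (0.35, 0.0521) and without any 1 of old replicates 1 to 5 or young replicates 3, 6, 7 or 8 (0.30, adjusted p = 0.0991, without old replicate 3). On the TPM scale limma called Irf1 lower from old to repopulated microglia (-0.37, adjusted p = 0.00485). Nfe2l1, the activator of constitutive proteasome genes under proteasome stress, gave values from -0.14 to 0.05 in edgeR with no call in any of the 6 comparisons. From old to repopulated microglia it was called lower with total-count scaling (-0.24, adjusted p = 0.0119) and with limma on log2(TPM + 1) (-0.32, 0.00473), and with age it was called higher with the length offset (0.17, 0.0448). Irf8, a myeloid factor, rose by 1.20 with age in cord (edgeR adjusted p = 9.43e-07). Its age change was smaller in microglia than in cord (-1.39, edgeR interaction adjusted p = 1.47e-10). The same held for Ifngr1, a chain of the interferon gamma receptor (-0.72, edgeR interaction adjusted p = 7.78e-09). For Ifngr1 every old microglia library was below every young one, as for 3.05% of all genes. In all, 2 of the 8 were called higher with age in microglia and 1 lower, and 3 higher and none lower in cord, where the shares of all genes were 11% and 10.7%, and 4.88% and 1.26%.

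Of a list of 12 type I interferon targets 11 were tested. All 11 were called higher in each of the 3 microglia comparisons, where 11%, 9.05% and 16.1% of all genes were. Their median log2 fold changes were 1.74, 0.98 and 2.76. In cord 2, 6 and 11 were called higher, where 4.88%, 0.148% and 7.28% of all genes were. The cord medians were 0.36, 1.04 and 1.56. Without repopulated cord replicate 6 the cord counts were 6, 7 and 11, with medians of 0.36, 0.87 and 1.31. In that fit 1428, 31 and 1694 of all 18401 genes were called higher. Ifi204, a nucleic acid sensor, rose in microglia (2.07 with age, 1.21 from old to repopulated, edgeR adjusted p = 5.7e-12 and 4.14e-07), and Ifit2, a translation inhibitor, rose by 1.80 with age. The summed level of all 12 listed genes had medians of 148, 420 and 823 CPM in young, old and repopulated microglia and of 108, 129 and 246 CPM in cord. The immunosubunits had median log2 fold changes of 0.32 for old against young microglia, 0.35 for repopulated against old and 0.68 for repopulated against young. In cord these were 0.83, 0.61 and 1.45 for the same comparisons (0.83, 0.38 and 1.23 without replicate 6). Ifng, the gene of interferon gamma, had at most 3 counts in any microglia library and at most 4 in any cord library. Summed T and NK cell markers, genes of cells that make interferon gamma, had medians of 1.08, 2.4 and 2.64 CPM in cord and of 4.29, 8.38 and 3.42 CPM in microglia. Their part in the subunit changes, like that of the neutrophil, monocyte and border macrophage markers, was not tested.

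The genes most like the immunosubunits were sought by correlation of log2 CPM, as deviations from the group mean, with the mean of Psmb8, Psmb9 and Psmb10 over the 24 libraries of a tissue, a description of libraries that share depth and scaling. In cord the 5 closest of 12189 genes were Tap2 (Pearson r 0.94, Spearman rho 0.893), Ogfr (0.935, 0.78), Bst2 (0.93, 0.803), Clec2d (0.919, 0.71) and Psap (0.913, 0.844). Bst2, also called tetherin, is an interferon-induced restriction factor, and Psap encodes a lysosomal activator of lipid breakdown. In microglia the closest of 9329 were Rpsa (0.914, 0.713), Rps2 (0.909, 0.813), Fis1 (0.906, 0.64), Eif5a (0.892, 0.701) and Eif3i (0.888, 0.744), of which Rpsa and Rps2 encode ribosomal proteins and Eif5a and Eif3i translation factors. Within groups the constitutive genes varied with the immunosubunits too. Psmb8 and Psmb9 correlated at Pearson r 0.876 in microglia and 0.899 in cord (Spearman rho 0.639 and 0.771). Psmb8 and Psmb6 correlated at Pearson r 0.809 and 0.776 (Spearman rho 0.59 and 0.507). Repopulated cord replicate 6 and repopulated microglia replicate 1, each the highest of its group for every subunit described, are among these libraries. Their part in the correlations was not tested. The share of counts on 82 ribosomal protein genes averaged 2.294% ± 0.206 (SD, n = 8) in young, 3.388% ± 0.722 in old and 5.519% ± 0.368 in repopulated microglia, moving in the order of the groups; its part in the subunit values was not tested.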

How the data were processed

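The authors deposited 3 tables over 48 libraries and 35870 genes: read counts, TPM and FPKM. The deposited counts are whole numbers, the deposited TPM equal counts per gene length rescaled within each library, and the deposited FPKM are counts scaled by gene length and library total, as the values show. STAR 2.5.2b and the build GRCm38.p5 are listed, without a role, per the submitters' processing notes; the read counter is not given in the sources used here. Polyadenylated RNA went into an unstranded kit, per the labels' protocols. Counting error is small beside the spread between libraries for genes with many counts. It is a larger part of the spread for genes with fewer, such as Psmb9 in cord, with 54 to 253 counts per library.

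Groups were taken from the sample titles. Counts were tested with edgeR 4.0.16 (quasi-likelihood, TMM scaling, filterByExpr with minimum count 10 and minimum total 15) in R 4.3.3, 24 libraries of a tissue per fit, and with an interaction over 48 libraries between tissues. Calls have a Benjamini-Hochberg adjusted p under 0.05 over all genes tested. Ratios of counts per length were compared by two-sided exact permutation (12870 arrangements). Alternatives were other scalings, no filter, DESeq2 1.42.0, limma 3.58.1 on log2(TPM + 1) and log2(TPM + 0.1), a smooth offset on gene length, a replicate block, raw-count and FPKM ratios, and libraries left out. No 2 libraries of a group were alike within sampling noise (168 pairs, chi-square per gene of 3.4 or more). The scripts were tested on simulated data.

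The genes, lists and alternatives were chosen with earlier results of these data known. All 8 genes are named in every comparison, as are Tap1, Tap2, Tapbp, B2m, Nlrc5, Irf1 and Nfe2l1; of other lists, up to 2 called genes with the smallest adjusted p per comparison were eligible. Gm20496, Nek6, Mir686, Emc9, Psme2b and Ifng are named outside that rule, and Psmb11 as a listed gene with almost no counts. Protein sequences were not used here, and 2 listed genes are not reported here.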

Additional observations from a re-analysis of the deposited data

Results flagged for a closer look

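In all, 96 sets of 8 values were examined (CPM of each gene, pair ratios and shares by group). Of these, 17 held a library whose gap to the others was large against the group's range. For a single set of normally distributed values, chance gives this about 1 time in 20. The 96 sets share genes and the same 48 libraries, so that rate is no yardstick for the number flagged. Repopulated cord replicate 6 was such a library for all 8 genes, at 45.12 CPM for Psmb8, 15.29 for Psmb9, 100.8 for Psmb10, 77.63 for Psme1, 83.38 for Psme2, 76.51 for Psmb5, 236.5 for Psmb6 and 267.4 for Psmb7. Repopulated microglia replicate 1 was for 5 genes, at 314.4 CPM for Psmb8, 323.8 for Psme1, 136.4 for Psme2, 33.65 for Psmb5 and 116.6 for Psmb6. Both libraries were high for immunosubunits and constitutive subunits alike.

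Young microglia replicate 7 was the highest of its group for Psmb10, at 118.5 CPM with the next library at 92.7. Young cord replicate 5 had the highest log2 ratio of Psmb9 to Psmb6 of its group, at -4.547, and the highest immunosubunit share, 11.32%. Repopulated cord replicate 7 had the lowest log2 ratio of Psmb9 to Psmb6 of its group, at -4.557, close to the highest young value. The age change of Psmb9 was smaller in microglia than in cord, by a log2 difference of -0.67 that passed the main interaction test in edgeR. The median of that difference over all genes was -0.15. The Psmb9 call was lost with DESeq2 size factors (-0.52, edgeR adjusted p = 0.13) and under the other alternatives named above.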

How the results depend on the processing

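Under the alternatives 814 ratio values kept their side of the threshold and 12 did not. Small differences that did not pass could change sign. Psmb8 to Psmb9 in repopulated against old microglia ran from -0.04 to 0.02 with single libraries left out. The 12 that crossed the threshold all concern Psmb10 to Psmb7 in old against young microglia. That ratio was -0.24 (exact adjusted p = 0.0525) with the replicate block, -0.21 (0.0963) without old replicates 2 and 7, and -0.29 to -0.20 with single libraries left out. The immunosubunit share from raw counts, which weights long transcripts more, was 62.05%, 62.92% and 68.06% in young, old and repopulated microglia and 12.28%, 16.03% and 19.27% in cord. Psmb4 in repopulated against young microglia reversed to -0.12 with the length offset, -0.0745 with limma on log2(TPM + 1) and -0.0749 with log2(TPM + 0.1); the cause was not tested.

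Counts of genes called moved with the unit and test, and with single libraries. Repopulated against old microglia gave 2336 genes, but 4779 and 4643 with limma on log2(TPM + 1) and log2(TPM + 0.1), and against young 4698, but 7378 and 7478. Repopulated against old cord gave 27, but 66 with the DESeq2 Wald test and 13 and 12 with limma, and against young 1839, but 1030 and 1003 with limma. Old against young cord gave 1123, and 2109 without repopulated cord replicate 6. The tissue difference with age gave 3913, and 2606 with total-count scaling; that of repopulated against old gave 2107, and 3307. With single libraries left out the counts ran from 2658 to 3281, 2009 to 2599 and 4290 to 4772 in microglia and from 943 to 2109, 16 to 57 and 1507 to 2561 in cord, for old against young, repopulated against old and repopulated against young. The share of called genes that were higher was 50.7% with age in microglia, 60.9% with DESeq2 size factors, 60.5% with total-count scaling and 64.1% with the length offset. From old to repopulated microglia it was 55.7%, and 17.6% with total-count scaling, under which the all-gene median was -0.21 in place of -0.04. From young to repopulated microglia it was 49.4%, and 31.8% with total-count scaling. In repopulated against young cord it was 72.4%, and 84.6% with total-count scaling. For the tissue difference with age it was 26.6%, and 49.3%, 51% and 44.2% with DESeq2 size factors, total-count scaling and the length offset, and 46.9% without repopulated cord replicate 6. For repopulated against old it was 31.6%, 14.8% with total-count scaling and 50.5% without repopulated cord replicate 6.

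Equal replicate numbers did not pair the libraries: correlations of their deviations ran from -0.116 to 0.133 in microglia and from -0.493 to 0.431 in cord, and at most 2 of 8 libraries matched their own number best. With the replicate block 41 of 42 ratio results, called or not, stayed on the same side of the threshold. In the gene tests with that block Psmb9 passed in repopulated against old microglia (0.35, edgeR adjusted p = 0.0399), and Psmb10 (0.54, 0.0917) and Psme1 (0.48, 0.0641) missed in repopulated against young cord. Psmb9 in old against young microglia passed with DESeq2 size factors (0.37, adjusted p = 0.044). Psmb9, the lowest of the 8 genes in cord, had 54 to 253 counts per cord library.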
